A study of Mus musculus with 40 samples.

Results

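The recovery of mouse quadriceps muscle over the first 3 h after an exhausting run was read from 6 messenger RNA libraries, of 40 in the series. Of these, 3 came from C57BL/6 mice that had run on a treadmill to exhaustion in the session at lights on and were sampled 3 h later (+3h, zeitgeber time (ZT) 3.5, in hours from lights on), and 3 from mice sampled at the end of such a run (+0h, ZT 0.5). The libraries were taken by their group label alone, with no measured value, and all genes that passed the filter on low counts were compared, 15097 of the 23621 in the table. Sedentary mice of the same strain at ZT 4 and ZT 0 gave the change without a run over nearly the same hours. Mice that ran in the session at the onset of darkness, sampled at +3h (3.5 h after lights off) and +0h (0.5 h after lights off), gave the recovery after the other session; each of these groups also held 3 libraries. No group carries a genetic change or an agent by its labels. Each library has an animal tag of its own, read here as 1 mouse, and the labels name neither sex nor age nor how long a mouse ran.

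Contraction to exhaustion raises calcium, cyclic AMP and AMP in muscle fibres, and kinases that sense them switch on a first set of genes, the immediate early genes, within minutes. The messenger RNAs of these genes are short-lived, and many encode transcription factors that act on later genes. In the hours after a run skeletal muscle is known for transient rises of Ppargc1a, which encodes the coactivator PGC-1alpha, and of genes that switch fuel use to fat, refill glycogen and turn over protein. The quadriceps is mostly fast, glycolytic muscle with a deep portion that holds slow fibres.

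The 6 libraries held 27353187 (+0h replicate 3) to 65687474 (+0h replicate 1) estimated counts, and no pair of replicates agreed within sampling noise. The labelled tissue was borne out by 12 skeletal muscle markers, whose levels in CPM (counts scaled to the library's total with edgeR's TMM factors) summed to 206700 to 230700 in the +3h libraries and 196000 to 239900 in the +0h libraries. Markers of other cells were uneven in single libraries. The 12 slow fibre genes summed to 2111, 127 and 412 CPM at +3h and 277, 318 and 442 CPM at +0h, and the 8 tendon markers reached 1008 CPM in +3h replicate 1 against at most 704.9 CPM at +0h. The 11 adipocyte markers summed to 1179, 1587 and 1282 CPM at +3h and 2824, 1061 and 3889 CPM at +0h. In whole muscle, fewer cells of a type and less RNA per cell cannot be told apart. Values of 3 libraries follow the order of replicates 1, 2 and 3, and an unmarked value in parentheses is the log2 fold change of +3h over +0h, with its standard error (SE) and its p after Benjamini-Hochberg adjustment over all genes tested.

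Over the 3 h, 2133 genes (14.1% of 15097) passed edgeR's quasi-likelihood test at an adjusted p of 0.05, 955 of them higher at +3h (6.33%) and 1178 lower (7.80%). At least 2-fold changes were seen in 237 raised and 316 lowered genes, and the median log2 fold change over all genes was -0.00. The rises were led by genes of stretched or remodelled muscle (Ankrd1, Rrad, Csrp3, Mustn1, Enah, Xirp1, Hspb7), by Ppargc1a, by the antioxidant enzyme gene Srxn1 and by Pdk4. The falls were led by immediate early genes and other quick responders (Apold1, Egr3, Nr4a2, Junb, Fosl2, Klf2, Egr2). Every +3h library lay on one side of every +0h library for 1960 of the genes that passed, and for 25.6% of all genes tested. A fit to these 6 libraries alone, which estimates the spread from 3 libraries a group, called 654 genes (278 raised, 376 lowered). The count was 1390 without +3h replicate 2 and 1411 without +0h replicate 1.

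**Figure D1:**
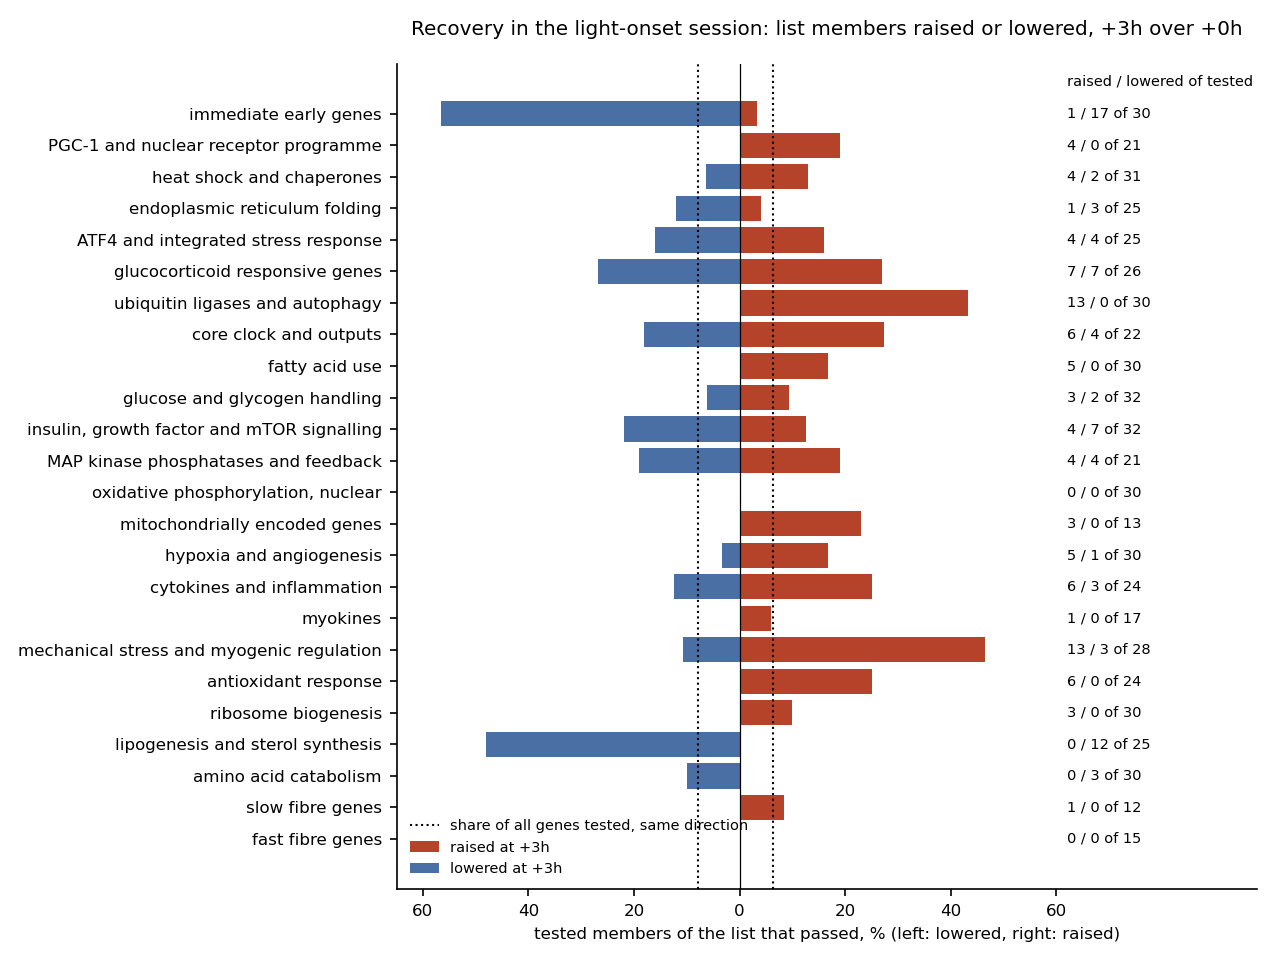
Share of the tested members of each of 24 gene lists that passed edgeR's test at +3h against +0h of the light-onset session, in percent: bars to the right are raised and bars to the left lowered members. Dotted lines mark the share of all genes raised (6.33%) and lowered (7.80%); immediate early genes and sterol genes extend furthest to the left, mechanical stress genes and ubiquitin ligases furthest to the right.

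Ppargc1a (NCBI gene 19017, chr5:51454249-52115853, GRCm38.p6), the coactivator that drives mitochondrial gene expression, rose evenly in its 3 libraries. It read 232, 227 and 253 CPM in the +3h libraries and 25.5, 28.2 and 23.7 CPM in the +0h libraries. Every +3h library thus lay far above every +0h library, and the +0h values stood near those of sedentary muscle, 23.1, 21.3 and 24.3 CPM at ZT 4 and 28.0, 27.7 and 31.1 CPM at ZT 0. The log2 fold change was 3.20 (SE 0.12, adjusted p = 5.3e-13). Of the 21 genes of the PGC-1 and nuclear receptor list, 4 rose and none fell, with a list median of 0.12; 2 rose without +0h replicate 3. Besides Ppargc1a these were Lpin1, a phosphatidate phosphatase that also coactivates nuclear receptors (0.51), the growth factor gene Vegfa (0.39) and the corepressor gene Nrip1 (0.62). These 3 changes were under 2-fold and less firm. Lpin1 lost its call without +3h replicate 2 (0.45), Vegfa without +0h replicate 1 (0.38), +0h replicate 3 (0.35) or +3h replicate 3 (0.28), and Nrip1 without +0h replicate 2 (0.59), +0h replicate 3 (0.48), +3h replicate 1 (0.55) or +3h replicate 2 (0.47).

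**Figure D2:**
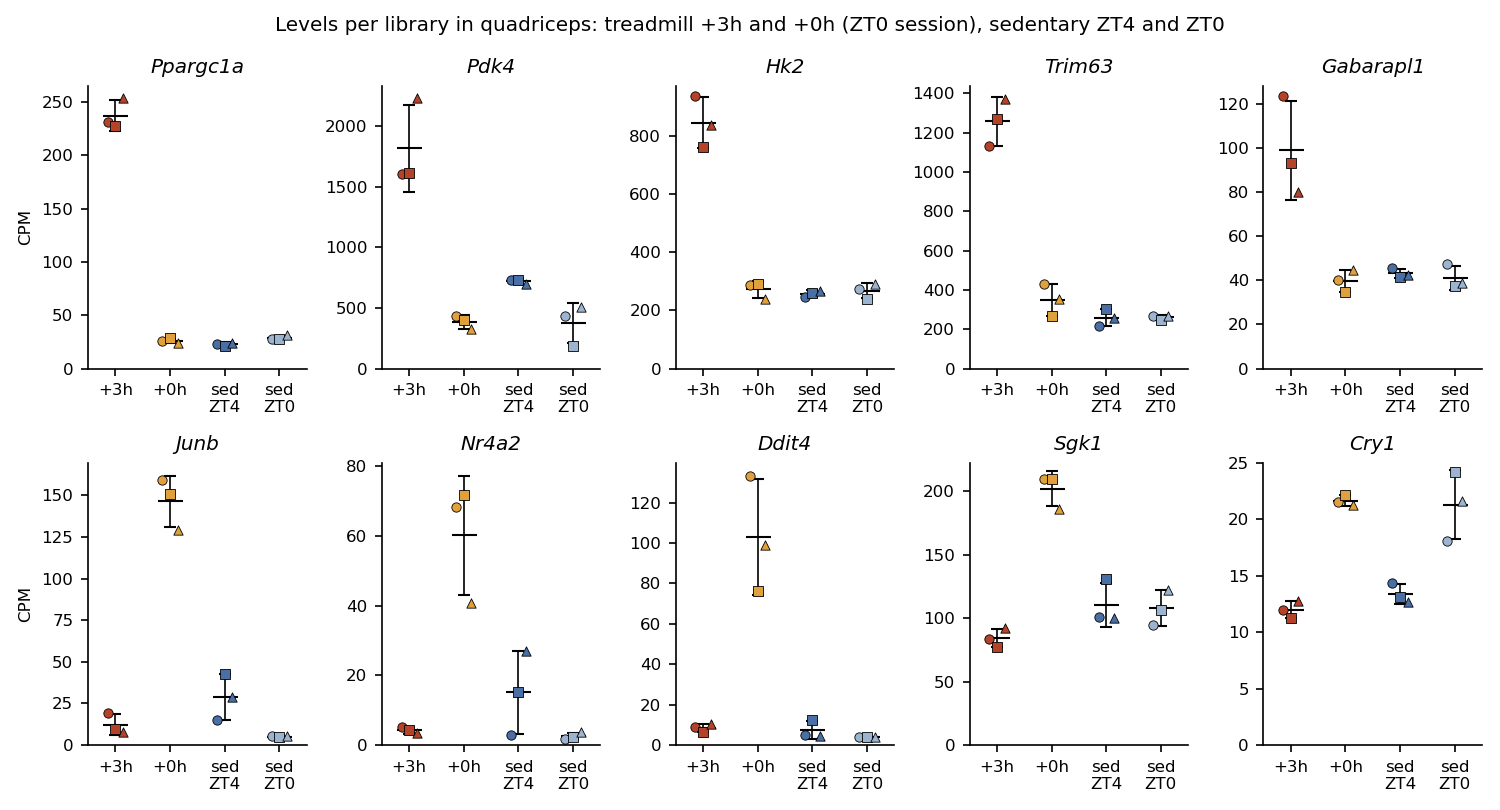
CPM of 10 genes in each library, with the mean and SD of 3 libraries a group; circles, squares and triangles are replicates 1, 2 and 3, and the groups run from treadmill +3h and +0h of the light-onset session to sedentary ZT4 and ZT0. In Ppargc1a, Pdk4, Hk2, Trim63 and Gabarapl1 every +3h library lies above every other library; in Junb, Nr4a2, Ddit4 and Sgk1 every +0h library lies above every +3h library, and Cry1 is low at +3h and in sedentary ZT4 muscle.

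Promoter sequence is shown for 4 genes chosen from their values, the raised Ppargc1a and Hk2 and the lowered Nr4a2 and Apold1, because cyclic AMP and calcium act on several of them in other systems through the CREB factor, which binds the cyclic AMP response element (CRE). Each window holds 250 bases before and 50 after the start that the RefSeq table of GRCm38.p6 gives (for Ppargc1a a start inside the gene's full span), 5′ to 3′ on the strand of the gene, and the capitals mark matches to the half-site TGACG or its reverse complement CGTCA. Ppargc1a's window lies at chr5:51567676-51567975 on the minus strand, Hk2's at chr6:82774405-82774704 on the minus strand, Nr4a2's at chr2:57123954-57124253 on the minus strand and Apold1's at chr6:134981751-134982050 on the plus strand.
Ppargc1a: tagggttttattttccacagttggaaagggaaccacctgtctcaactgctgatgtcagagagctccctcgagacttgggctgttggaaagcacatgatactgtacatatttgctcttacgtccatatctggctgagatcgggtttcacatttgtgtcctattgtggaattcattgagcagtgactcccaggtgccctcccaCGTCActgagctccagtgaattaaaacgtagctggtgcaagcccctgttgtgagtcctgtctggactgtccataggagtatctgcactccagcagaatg
Hk2: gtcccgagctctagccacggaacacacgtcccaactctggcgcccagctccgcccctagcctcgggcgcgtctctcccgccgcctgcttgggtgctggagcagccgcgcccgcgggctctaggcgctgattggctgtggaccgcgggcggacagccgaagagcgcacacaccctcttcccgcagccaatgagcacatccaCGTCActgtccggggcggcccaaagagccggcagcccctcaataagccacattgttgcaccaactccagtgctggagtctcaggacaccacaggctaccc
Nr4a2: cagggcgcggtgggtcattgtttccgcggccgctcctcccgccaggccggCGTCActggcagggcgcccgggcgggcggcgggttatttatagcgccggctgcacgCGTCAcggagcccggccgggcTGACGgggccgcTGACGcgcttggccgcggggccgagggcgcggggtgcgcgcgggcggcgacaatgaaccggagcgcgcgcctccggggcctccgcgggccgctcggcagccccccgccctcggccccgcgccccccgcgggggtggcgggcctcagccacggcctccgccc
Apold1: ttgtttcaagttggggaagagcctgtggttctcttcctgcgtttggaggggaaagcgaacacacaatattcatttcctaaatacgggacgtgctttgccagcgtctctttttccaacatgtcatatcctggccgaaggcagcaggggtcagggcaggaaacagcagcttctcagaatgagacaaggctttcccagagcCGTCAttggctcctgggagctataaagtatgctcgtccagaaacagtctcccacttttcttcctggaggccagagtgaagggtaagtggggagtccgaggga
Nr4a2's window held 4 matches and the other windows 1 each. Of all 32851 windows 20.8% held a match on either strand, and of the 15051 windows of genes tested here 28.7%. Matches lay in 22 of 32 windows of the immediate early genes (68.8%), in 11 of 18 windows of the 15 largest falls (61.1%) and in 5 of 11 windows of the 15 largest rises (45.5%). The falls and rises were chosen by their values, and the falls share members with the immediate early genes, such as Fosl2 and Klf2. The shares of those 2 sets are therefore not separate observations. RefSeq windows were matched for 23 of the 30 immediate early genes, 11 of the 15 falls and 10 of the 15 rises. A match describes these letters and is not evidence that a factor binds there.

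Genes that move muscle toward burning fat rose in part. Pdk4, whose kinase inhibits the pyruvate dehydrogenase complex, read 1609, 1615 and 2231 CPM at +3h and 434, 399 and 323 CPM at +0h (log2 fold change 2.24, SE 0.29, adjusted p = 6.1e-05). Cpt1a, which admits long-chain fatty acids to mitochondria, read 21.9, 22.4 and 20.5 CPM at +3h and 10.6, 10.1 and 8.22 CPM at +0h (1.16, SE 0.12, adjusted p = 1.9e-06). In both genes the groups stood well apart. The thioesterase gene Acot2 rose by 1.54 and the uncoupling protein gene Ucp3 by 1.39, and the fifth of the 5 raised genes of this 30-gene list was Mlycd, which removes malonyl-CoA (0.42). The list's median was 0.01, and its other 25 members did not pass.

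Among 32 genes of glucose and glycogen handling 3 rose and 2 fell, a share near that of all genes; 1 fell in each fit that left out 1 library. Hk2, the hexokinase that traps glucose in the fibre, was the firmest: 937, 761 and 839 CPM at +3h and 287, 292 and 238 CPM at +0h (1.63, SE 0.13, adjusted p = 1.1e-07). Ugp2, which makes the UDP-glucose for glycogen, read 548, 551 and 523 CPM at +3h and 374, 418 and 397 CPM at +0h (0.45, SE 0.09). The other raised gene was Pfkfb4 (0.52), and the lowered ones were Pfkfb1 (-0.43) and Ppp1r3b. Ppp1r3b, a glycogen-targeting subunit of protein phosphatase 1, read 0.895, 1.25 and 1.24 CPM at +3h and 8.496, 1.69 and 37.4 CPM at +0h. Its fall (-3.78, SE 0.91, adjusted p = 0.01) did not pass without +0h replicate 3, the highest library (-2.18). Its +0h values had the same order as the adipocyte marker sums, which were 2824, 1061 and 3889 CPM at +0h. A fit with the adipocyte score as an added term gave a change of -1.51, which passed. Pfkfb4 lost its call without +0h replicate 1 (0.52), +0h replicate 3 (0.47), +3h replicate 1 (0.50) or +3h replicate 2 (0.44).

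Ubiquitin ligases and autophagy genes rose as a broad group: 13 of 30 rose and none fell, with a median log2 fold change of 0.21. Trim63, the muscle ligase MuRF1, read 1129, 1267 and 1373 CPM at +3h and 429, 268 and 352 CPM at +0h (1.85, SE 0.27, adjusted p = 0.00017). Gabarapl1, which coats the growing autophagosome, read 124, 93.1 and 80.0 CPM at +3h and 40.2, 34.5 and 44.4 CPM at +0h (1.32, SE 0.15, adjusted p = 1.1e-05). Neither gene had overlapping groups. Gadd45a, a growth arrest gene, rose by 1.08 (SE 0.15) and the ligase gene Fbxo40 by 0.50 (SE 0.08). Others that passed were the ligases Fbxo30 and Cblb, the transcription factors Foxo1 and Foxo3, the autophagy receptor Sqstm1, the proteasome subunit Psmd11, the polyubiquitin gene Ubb, and Fbxo32. Fbxo32, the ligase atrogin-1, read 493, 861 and 1054 CPM at +3h and 517, 412 and 555 CPM at +0h (0.70, adjusted p = 0.046), groups that overlapped. It lost its call without +0h replicate 1, 2 or 3 (0.73, 0.58 and 0.79) and without +3h replicate 2 (0.65) or 3 (0.45). In the fit of these 6 libraries 8 of the 30 rose.

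Genes that respond to stretch, load and muscle repair rose in number, but unevenly between libraries. Of 28 genes of the mechanical stress and myogenic list 13 rose and 3 fell, with a median of 0.38. Ankrd1 (NCBI gene 107765, chr19:36111965-36119844), a titin-binding protein that stretched muscle makes, read 321, 55.1 and 11.2 CPM at +3h and 6.96, 6.78 and 4.63 CPM at +0h (4.38, SE 0.88, adjusted p = 0.003). Rrad, a small GTPase, read 54.2, 23.3 and 5.11 CPM at +3h and 2.55, 2.56 and 1.98 CPM at +0h (3.52, SE 0.58). Xirp1, an actin-binding repair protein, read 3766, 1112 and 508 CPM at +3h and 354, 452 and 227 CPM at +0h (2.38, SE 0.52). Replicate 1 was the highest of the +3h libraries in 22 of the 28, beside 463 of all 955 raised genes (48.5%). In Ankrd1, Rrad and Xirp1 it was the highest +3h library by a wide margin. Without it the log2 fold changes were 2.42, 2.58 and 1.23, each still past the threshold, and 9 members rose and 5 fell; without +0h replicate 3 8 rose and 3 fell.

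The receptor gene Tnfrsf12a, for the repair cytokine TWEAK, spread less: 133, 88.6 and 50.5 CPM at +3h and 23.2, 24.1 and 16.8 CPM at +0h (2.08, SE 0.32, adjusted p = 0.00032). The fall of Myog, a myogenic transcription factor, was even across libraries, with 5.37, 4.14 and 2.96 CPM at +3h and 15.54, 21.6 and 12.1 CPM at +0h (-1.99, SE 0.27, adjusted p = 6.1e-05). Id1, an inhibitor of such factors, fell as well (-1.34, SE 0.17), and the matrix gene Ccn2 was the other lowered member (-1.40). Csrp3, the muscle LIM protein, read 162, 22.5 and 48.6 CPM at +3h and 9.004, 11.2 and 14.1 CPM at +0h (2.78, SE 0.79). It lost its call without +3h replicate 1 (1.65) or any one +0h replicate (2.62, 2.77 and 2.94), and it is also 1 of the 12 slow fibre genes, whose other 11 members did not pass. In sedentary muscle it read 45.4, 18.1 and 26.9 CPM at ZT 4 and 56.8, 9.44 and 37.5 CPM at ZT 0. In the fit of these 6 libraries no member of the 28 rose and 3 fell; in DESeq2 14 rose and 4 fell. With the slow fibre score as a covariate 14 rose, and Ankrd1 (3.81), Rrad (3.35) and Xirp1 (2.11) passed; the part of tendon RNA was not tested.

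**Figure D3:**
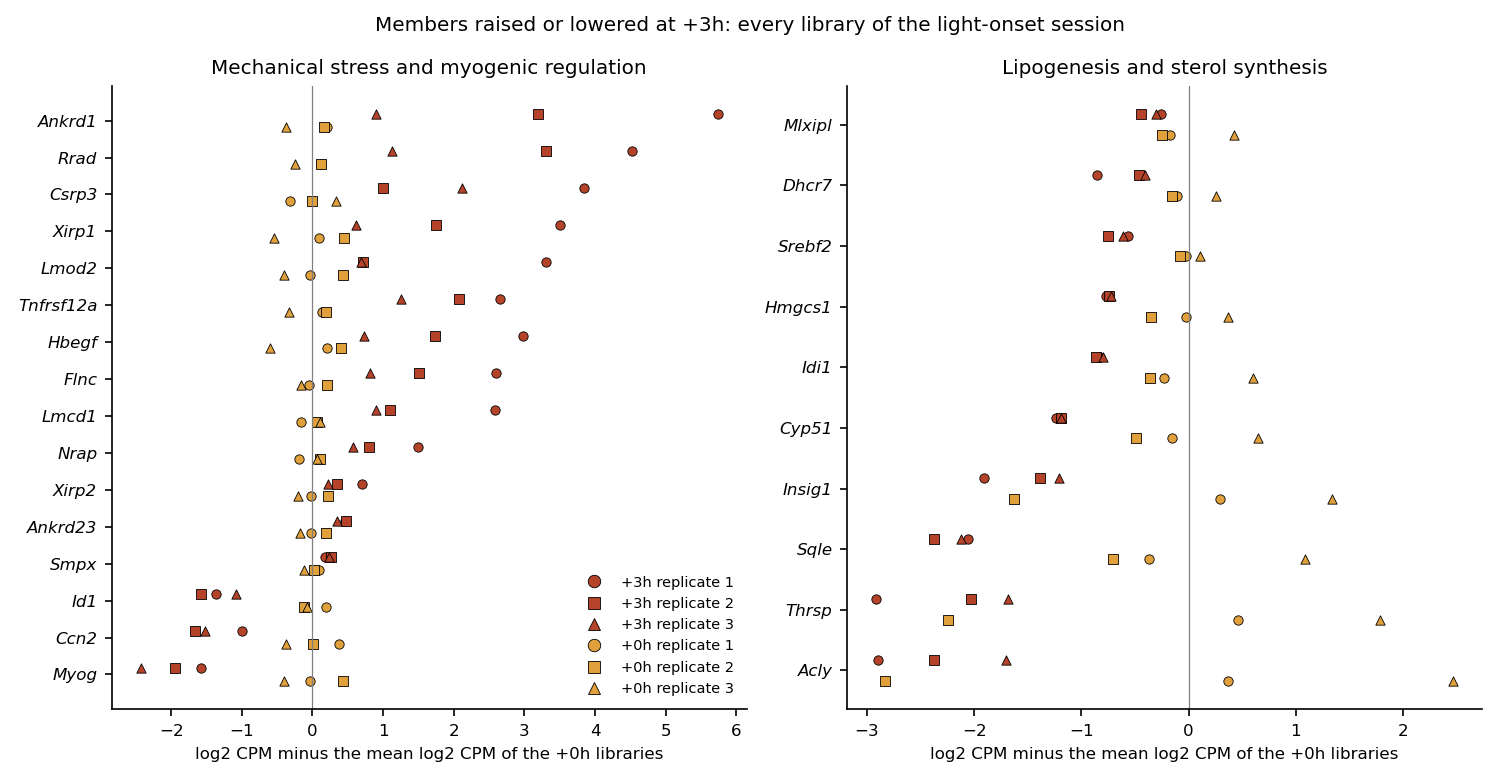
Each library's log2 CPM minus the mean log2 CPM of the +0h libraries, for members of 2 lists that passed the test; red symbols are +3h and yellow symbols +0h libraries, with circles, squares and triangles for replicates 1, 2 and 3. In the mechanical stress list +3h replicate 1 lies farthest right for most raised genes; in the sterol list +0h replicate 3 lies farthest right for most genes.

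Few heat shock genes passed. Of 31 heat shock and chaperone genes 4 rose and 2 fell (median 0.11), beside 6.33% raised and 7.80% lowered of all genes. Hspb7, a small heat shock protein of heart and muscle, read 930.2, 397 and 345 CPM at +3h and 105, 132 and 153 CPM at +0h (2.10, SE 0.46, adjusted p = 0.0052), and Hspb8, a partner in chaperone-assisted autophagy, 1329, 896 and 619.7 CPM at +3h and 555, 545 and 442 CPM at +0h (0.88, SE 0.20). The groups of both genes did not overlap, and without +3h replicate 1 Hspb8's change was 0.56. The inducible Hspa1a read 1153, 357 and 132 CPM at +3h and 306, 393 and 152 CPM at +0h and did not pass (0.95, adjusted p = 0.53); its near-identical copy Hspa1b changed by 0.72 (adjusted p = 0.67), and reads may be misassigned between these copies. Replicate 1 was the highest +3h library in 27 of the 31 genes, beside 48.5% of all raised genes. The list's count was 11 raised and none lowered without +3h replicate 3, 2 raised and 3 lowered without +3h replicate 1, and none either way in the fit of these 6 libraries.

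All 6 antioxidant genes that passed, of 24, rose. Without +0h replicate 2 7 rose and 3 fell, and in the fit of these 6 libraries 1 rose. Srxn1, the sulfiredoxin that restores oxidized peroxiredoxins, read 361, 155 and 93.6 CPM at +3h and 31.7, 34.2 and 31.5 CPM at +0h (2.65, SE 0.34, adjusted p = 5.2e-05). Hmox1, which breaks down haem, read 64.2, 39.9 and 18.2 CPM at +3h and 15.02, 16.7 and 11.6 CPM at +0h (1.49, SE 0.30). Gclc, which limits glutathione synthesis, rose by 0.41 (SE 0.08), and Txnip, a thioredoxin inhibitor that also answers to glucose, by 0.57. In these 4 genes the lowest +3h library was above the highest +0h library. The metallothionein genes did not pass between the 2 times: Mt1 read 70.9, 72.03 and 43.6 CPM at +3h and 58.8, 44.4 and 47.4 CPM at +0h (0.31, adjusted p = 0.43), and Mt2 83.2, 62.2 and 34.4 CPM at +3h and 39.6, 32.2 and 25.9 CPM at +0h (0.88, adjusted p = 0.06). Both groups lay above every sedentary library, where Mt1 read 6.48, 6.85 and 5.88 CPM at ZT 4 and 6.68, 5.82 and 5.61 CPM at ZT 0.

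Genes of blood vessel growth mostly rose where they passed. Of 30 hypoxia and angiogenesis genes 5 rose and 1 fell (median 0.20). The apelin receptor gene Aplnr read 13.9, 10.2 and 11.7 CPM at +3h and 2.27, 1.64 and 2.85 CPM at +0h (2.42, SE 0.37, adjusted p = 0.00025). Efna1, an ephrin ligand, read 19.3, 14.6 and 13.9 CPM at +3h and 4.61, 4.51 and 4.28 CPM at +0h (1.83, SE 0.19, adjusted p = 3e-06). The +0h levels of both lay below all sedentary libraries, where Aplnr read 11.2, 7.47 and 5.07 CPM at ZT 4 and 9.05, 10.1 and 12.7 CPM at ZT 0. Angpt2, which loosens vessels for growth, rose by 1.75 (SE 0.22) and the endothelin receptor gene Ednra by 0.94 (SE 0.19). Thbs1, which encodes the antiangiogenic matrix protein thrombospondin-1, fell, with 71.5, 23.2 and 53.7 CPM at +3h and 182, 206 and 125 CPM at +0h (-1.79, SE 0.38, adjusted p = 0.0043).

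Of 11 endothelial markers 1 rose and 2 fell, and their sum was 358 to 430.4 CPM at +3h and 369 to 394 CPM at +0h. Pecam1, an endothelial adhesion protein, read 98.5, 77.0 and 81.6 CPM at +3h and 56.3, 55.1 and 57.4 CPM at +0h (0.61, SE 0.12), while the tight junction gene Cldn5 fell, with 10.5, 10.1 and 11.1 CPM at +3h and 26.5, 27.1 and 30.7 CPM at +0h (-1.41, SE 0.24). Members of one cell type's list thus moved in opposite directions. Of 17 myokine genes Vegfa alone passed, and without +0h replicate 1 none did. Of 24 cytokine and inflammation genes 6 rose and 3 fell; the interleukin receptor gene Il4ra rose by 0.68 (SE 0.11) and the NF-kappaB regulator Nfkbiz fell (-1.08, SE 0.25). Tnfrsf12a, Osmr, Stat3 and the chemokine gene Ccl2 were also higher, and Il1b and Ptgs2 lower. These counts moved with single libraries: 2 rose and 3 fell without +3h replicate 1, 3 rose and 4 fell without +0h replicate 1, 4 rose and 2 fell without +0h replicate 3, 1 fell without +0h replicate 2, +3h replicate 2 or +3h replicate 3, and none rose and 2 fell in the fit of these 6 libraries. The chemokine gene Cxcl10 read 5.75, 1.48 and 0.213 CPM at +3h and 0.209, 0.208 and 0.174 CPM at +0h (3.60), and it did not pass without +3h replicate 1 (2.10). Neutrophil markers stayed near 0, with sums of 2.50 to 2.73 CPM at +3h and 3.25 to 3.72 CPM at +0h, and macrophage markers summed to 127 to 216 CPM at +3h and 188 to 228 CPM at +0h.

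Immediate early genes fell in larger number than any other list drawn in the plot of list shares. Of 30, 17 were lower at +3h and 1, Mafk, was higher, with a median log2 fold change of -1.16. Without +3h replicate 2 11 were lower and none higher, without +3h replicate 1 17 were lower with a median of -2.01, and in the fit of these 6 libraries 9 were lower. Apold1 (NCBI gene 381823, chr6:134982001-134986836), an early-response gene of endothelial cells that stands outside this list, had the largest fall among the named genes that passed, with 1.18, 1.01 and 0.98 CPM at +3h and 35.4, 79.6 and 61.4 CPM at +0h (-5.80, SE 0.59, adjusted p = 7.4e-06). Junb, a subunit of the AP-1 transcription factor, read 19.3, 9.75 and 7.59 CPM at +3h and 159, 151 and 129 CPM at +0h (-3.59, SE 0.47). The AP-1 subunit gene Fosl2 read 14.4, 10.8 and 10.1 CPM at +3h and 144, 167 and 110.2 CPM at +0h (-3.58, SE 0.35, adjusted p = 4.6e-06). In these 3 genes every +3h library was at a small part of the +0h level, and Apold1's promoter window, printed above, has 1 CRE half-site. Nr4a2, an orphan nuclear receptor, read 5.28, 4.17 and 3.32 CPM at +3h and 68.3, 71.7 and 40.6 CPM at +0h (-3.83, SE 0.72), Egr3 0.754, 0.309 and 0.192 CPM at +3h and 5.85, 12.2 and 8.46 CPM at +0h (-4.44, SE 0.70), and Klf2, a factor that endothelial cells make under flow, 7.30, 5.13 and 5.77 CPM at +3h and 39.1, 62.8 and 61.8 CPM at +0h (-3.17, SE 0.34).

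The other largest changes lay outside these groups. Slc25a25, a mitochondrial carrier of ATP-magnesium and phosphate, read 30.9, 33.2 and 28.3 CPM at +3h and 464, 472 and 338 CPM at +0h (-3.79, SE 0.49, adjusted p = 6.6e-05). Kcne4, an accessory subunit of potassium channels, read 1.20, 0.893 and 0.81 CPM at +3h and 7.44, 10.5 and 7.80 CPM at +0h (-3.15, SE 0.35), and Bcl6b, a transcriptional repressor, 5.49, 3.36 and 2.94 CPM at +3h and 25.0, 28.7 and 27.5 CPM at +0h (-2.79, SE 0.41). Cd83, an immune surface protein, fell by more than 2 on the log2 scale (-2.83, SE 0.26). Among the rises, Klf5, a transcription factor, read 11.4, 6.81 and 6.29 CPM at +3h and 1.49, 1.87 and 1.46 CPM at +0h (2.33, SE 0.22), and Galnt15, an enzyme of O-glycosylation, 24.7, 19.7 and 20.4 CPM at +3h and 3.97, 2.98 and 6.34 CPM at +0h (2.32, SE 0.29). The kinase gene Map3k8 (2.14), the actin regulator Enah (2.47) and the muscle gene Mustn1 (2.49) were the others, and without +3h replicate 1 they changed by 1.31, 1.13 and 1.43.

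The nuclear receptor genes of the Nr4a family did not move together. Nr4a1 fell by less than Nr4a2, with 263, 212 and 173 CPM at +3h and 695, 729 and 639 CPM at +0h (-1.67, SE 0.29, adjusted p = 0.0007). Nr4a3 read 126, 113 and 132 CPM at +3h and 64.1, 53.9 and 36.7 CPM at +0h and did not pass (1.262, adjusted p = 0.21), although every +3h library was above every +0h library. Other well-known members were uneven. Fos read 200.1, 29.9 and 3.71 CPM at +3h and 265, 364 and 269 CPM at +0h (-1.94, adjusted p = 0.15), and Egr1 216, 45.4 and 15.7 CPM at +3h and 205, 262 and 198 CPM at +0h (-1.263, adjusted p = 0.39). Neither passed. In both, +3h replicate 1 stood near the +0h libraries and the other +3h libraries far below; without it Fos passed (-4.14) and Egr1 did not (-2.85). Atf3, a stress-induced factor, read 458, 98.1 and 50.7 CPM at +3h and 80.5, 121 and 65.8 CPM at +0h (1.18, adjusted p = 0.25), and its log2 fold change was -0.26 without +3h replicate 1. Fosb (-2.69) lost its call without +0h replicate 1, 2 or 3 (-2.60, -2.62 and -2.83) or without +3h replicate 2 (-2.42) or 3 (-2.21), and Egr2 (-2.79) without +3h replicate 2 (-2.42) or 3 (-2.48).

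Of 21 MAP kinase phosphatase and feedback genes, inhibitors of kinase signalling, 4 rose and 4 fell (median 0.19). The balance depended on single libraries, with 1 raised and 4 lowered without +0h replicate 1, 2 raised and 6 lowered without +3h replicate 1, 2 raised and 3 lowered without +3h replicate 2, and 2 either way in the fit of these 6 libraries. Spry4, which damps receptor tyrosine kinase signals, read 5.73, 4.50 and 3.88 CPM at +3h and 14.1, 23.6 and 14.1 CPM at +0h (-1.88, SE 0.20, adjusted p = 4.9e-06), and Dusp1, a MAP kinase phosphatase, 76.9, 50.4 and 29.7 CPM at +3h and 180.3, 267 and 227 CPM at +0h (-2.10, SE 0.30). Errfi1, an inhibitor of the EGF receptor, read 34.0, 19.7 and 15.8 CPM at +3h and 175, 209 and 193 CPM at +0h (-3.06, SE 0.44, adjusted p = 0.00017). All 3 had groups that stood apart. Rcan1, an inhibitor of the phosphatase calcineurin, rose, with 505, 176 and 179.9 CPM at +3h and 93.1, 108 and 67.7 CPM at +0h (1.68, SE 0.42), as did Dusp6 (0.61) and Spry1 (0.54). Dusp2 was low throughout, with 3.25, 4.43 and 2.88 CPM at +3h and 1.36, 1.52 and 1.98 CPM at +0h (1.14), and lost its call without +0h replicate 1 (1.02) or +3h replicate 2 (0.94).

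Of 32 genes that set insulin, growth factor and mTOR signalling 7 fell and 4 rose (median -0.02); 2 rose without +0h replicate 1. Ddit4, the mTORC1 inhibitor REDD1, read 9.12, 6.42 and 10.3 CPM at +3h and 133, 76.5 and 99.2 CPM at +0h (-3.59, SE 0.84, adjusted p = 0.009). Its relative Ddit4l read 137, 195 and 235 CPM at +3h and 367, 374 and 349 CPM at +0h (-0.94, SE 0.17). Sesn2, which reports amino acid supply to mTORC1, fell (-1.07, SE 0.19) while its relative Sesn1 rose, with 47.2, 42.0 and 43.2 CPM at +3h and 25.4, 22.3 and 21.7 CPM at +0h (0.93, SE 0.17). The 2 sestrin genes thus moved in opposite directions. Irs2, an adaptor of the insulin receptor, read 50.9, 37.4 and 24.9 CPM at +3h and 136, 101 and 74.9 CPM at +0h (-1.46, SE 0.34, adjusted p = 0.0077). The remaining members that passed were Sik1, Irs1 and Errfi1 (lower) and Trib2, Tsc1 and Akt1 (higher).

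Of 26 glucocorticoid responsive genes 7 rose and 7 fell (median 0.23). Without +0h replicate 2 or +0h replicate 3 4 rose and 6 fell, and without +3h replicate 1 8 rose and 5 fell. Among the lowered, Sgk1, named after its values were seen, a kinase of ion and nutrient transport, read 83.5, 77.4 and 92.0 CPM at +3h and 209.9, 209.8 and 186 CPM at +0h (-1.26, SE 0.19, adjusted p = 0.00018). Dusp1, Errfi1, Ddit4, Cdkn1a, Tsc22d3 and Per1 were the other lowered members, and Trim63, Gadd45a, Zbtb16, Klf9, Foxo1, Foxo3 and Fbxo32 the raised ones. Of the raised genes 5 also belong to the ubiquitin ligase and autophagy list, and of the lowered ones 4 to the lists of kinase feedback, insulin signalling or the clock.

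Stress genes of protein synthesis went both ways. Of 25 ATF4 and integrated stress response genes 4 rose and 4 fell (median 0.02), beside 6.33% raised and 7.80% lowered of all genes; 2 rose and 3 fell without +3h replicate 2, and 1 rose and 2 fell in the fit of these 6 libraries. Of 25 genes of folding in the endoplasmic reticulum 1 rose and 3 fell (median -0.05), and the lowered count was 1 without +0h replicate 1, +3h replicate 2 or +3h replicate 3 and 5 without +3h replicate 1. Chac1, an ATF4 target that degrades glutathione, read 50.9, 69.9 and 207 CPM at +3h and 17.7, 13.1 and 13.3 CPM at +0h (2.89, SE 0.66, adjusted p = 0.0075), and +3h replicate 3 was the highest library. Vldlr, a lipoprotein receptor, rose by 0.68 (SE 0.14) and the amino acid transporter subunit Slc3a2 fell (-0.30). In the reticulum list Ern1, the stress sensor IRE1, read 13.6, 11.4 and 11.6 CPM at +3h and 7.12, 8.03 and 7.31 CPM at +0h (0.70, SE 0.13, adjusted p = 0.0011). The ligase gene Syvn1, which acts in degradation of misfolded proteins, read 21.0, 22.4 and 22.3 CPM at +3h and 31.2, 30.5 and 27.2 CPM at +0h (-0.44, SE 0.06, adjusted p = 9.6e-05). Sensor and ligase thus moved in opposite directions, both by under 2-fold.

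Sterol synthesis genes fell together. Of 25 lipogenesis and sterol genes 12 fell and none rose, with a median of -0.88. Srebf2, the transcription factor of cholesterol synthesis, read 17.6, 15.48 and 17.0 CPM at +3h and 25.7, 24.6 and 28.0 CPM at +0h (-0.64, SE 0.07, adjusted p = 6.8e-06). Hmgcs1, an early enzyme of the pathway, read 27.0, 27.5 and 27.8 CPM at +3h and 45.2, 36.1 and 59.4 CPM at +0h (-0.77, SE 0.11). The +3h libraries were close to each other and below every +0h library in both genes. Cyp51, a demethylase of lanosterol, fell by more, with 4.10, 4.24 and 4.24 CPM at +3h and 8.66, 6.89 and 15.2 CPM at +0h (-1.27, SE 0.20). The sterol genes Sqle, Idi1, Dhcr7 and Insig1 and the lipogenic genes Thrsp, Acly and Mlxipl were among the others that passed.

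The +0h libraries were uneven in this list, and replicate 3, which had the highest adipocyte marker sum, was the highest of them in 23 of the 25 genes. Over all 1178 lowered genes it was the highest +0h library in 532 (45.2%). Thrsp, an adipocyte marker as well, read 15.8, 29.0 and 36.9 CPM at +3h and 163, 25.1 and 409.5 CPM at +0h (-2.87). It lost its call without +0h replicate 3 (-1.79) and without any one +3h replicate (-2.59, -2.92 and -3.15). The lipid droplet gene Pnpla3, outside the list, read 7.14, 7.83 and 11.9 CPM at +3h and 61.3, 18.2 and 130.0 CPM at +0h (-2.95; -1.43 when the adipocyte score was an added term). With the adipocyte score as a covariate 8 of the 25 fell, among them Srebf2 (-0.61), Hmgcs1 (-0.60) and Cyp51 (-1.01). Without +0h replicate 2, which had the lowest adipocyte sum, 21 fell, without +0h replicate 3 or +3h replicate 2 8 fell, and in the fit of these 6 libraries 2 fell. Of the 11 adipocyte markers Thrsp alone passed.

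Few genes of energy production, ribosome assembly or amino acid breakdown passed. Of the 13 mitochondrially encoded genes 3 rose (median 0.23), of which mt-Nd5, a subunit of complex I, read 6442, 5735 and 6872 CPM at +3h and 4488, 4834 and 4494 CPM at +0h (0.46, SE 0.10, adjusted p = 0.0027). The others were also complex I genes. The call of mt-Nd3 (0.36) held only without +3h replicate 1 among the fits that left out 1 library (0.30 to 0.41 over the 6 fits), and that of mt-Nd6 (0.83) only without +0h replicate 1 (0.63 to 1.01). Of 30 nuclear genes of oxidative phosphorylation none passed in edgeR or in DESeq2 (median 0.01), and 1 had an unadjusted p under 0.05 in edgeR.

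Of 30 ribosome biogenesis genes 3 rose, Noc2l (0.22), Ncl (0.16) and Wdr43 (0.21), beside 6.33% of all genes. Of 30 amino acid catabolism genes 3 fell, Ppm1k (-0.60), Dbt (-0.33) and Hibch (-0.32), beside 7.80% of all genes. The count of lowered amino acid catabolism genes was 7 without +0h replicate 2, 2 without +3h replicate 3 and 1 without any one of the other libraries. Ppm1k, a phosphatase that activates branched-chain amino acid breakdown, read 7.73, 7.34 and 8.10 CPM at +3h and 11.03, 13.2 and 10.7 CPM at +0h (SE 0.14, adjusted p = 0.0052). The calls of Noc2l, Ncl, Wdr43, Dbt and Hibch each ended without +0h replicate 1, +0h replicate 3, +3h replicate 1 or +3h replicate 2, with log2 fold changes of 0.17 to 0.27, 0.12 to 0.19, 0.16 to 0.28, -0.28 to -0.37 and -0.22 to -0.41 over the fits that left out 1 library. Of 15 fast fibre genes none passed in edgeR or DESeq2 and none had an unadjusted p under 0.05. Among the markers of other cells, no erythroid, neutrophil, Schwann cell or tendon marker passed, and 1 marker rose in each of the macrophage (Cx3cr1), fibroblast (Pdgfra) and pericyte (Pdgfrb) lists. Of 6 lymphocyte markers 1 fell (Cd79b), while 2 had a log2 fold change above 0 and 4 below. Their sum was 1.07 to 2.05 CPM at +3h and 3.59 to 3.90 CPM at +0h, ranges that did not overlap. Only 1 of the 6 had groups that did not overlap. In sedentary muscle the sum was 1.303 to 1.705 CPM at ZT 4 and 0.976 to 1.604 CPM at ZT 0. Of 8 satellite cell markers 1 rose, Des, which is also a muscle fibre gene, and their sum was 3133 to 3434 CPM at +3h and 2684 to 2930 CPM at +0h. The part of these markers in the other results was not tested.

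Clock genes moved in both directions while the day advanced by 3 h, 6 raised and 4 lowered of 22. Cry1, a repressor in the clock's negative limb, read 11.9, 11.2 and 12.7 CPM at +3h and 21.5, 22.2 and 21.3 CPM at +0h (-0.86, SE 0.08, adjusted p = 1.5e-06). Nr1d1, the repressor REV-ERBalpha, read 219, 198 and 207 CPM at +3h and 73.9, 70.5 and 97.3 CPM at +0h (1.37, SE 0.20, adjusted p = 0.00017). In sedentary muscle the log2 fold change of ZT 4 over ZT 0 was -0.67 for Cry1 (adjusted p = 0.0005) and 1.17 for Nr1d1 (adjusted p = 0.018), with Nr1d1 at 213, 189.8 and 218 CPM at ZT 4 and 89.2, 94.03 and 92.3 CPM at ZT 0. The difference between recovery and sedentary change was -0.19 for Cry1 (adjusted p = 0.39) and 0.20 for Nr1d1 (adjusted p = 0.75), and neither passed.

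Per1 and Dbp were among the clock genes that did not follow the sedentary course. Against the sedentary change 6 of the 22 differed downward and none upward, beside 3.19% and 2.51% of all genes. Per1, a light- and stress-inducible clock gene, read 47.0, 26.7 and 31.7 CPM at +3h and 158, 117 and 112 CPM at +0h (-1.88, SE 0.38, adjusted p = 0.0027), while sedentary muscle had 25.6, 60.5 and 69.2 CPM at ZT 4 and 11.8, 11.6 and 12.48 CPM at ZT 0. Recovery minus sedentary change was -3.99 (SE 0.54, adjusted p = 0.00029). Dbp, an output gene of the clock, read 22.6, 21.3 and 16.2 CPM at +3h and 8.71, 9.05 and 6.82 CPM at +0h (1.28, SE 0.15, adjusted p = 1.4e-05), against 53.6, 48.3 and 63.1 CPM at ZT 4 and 8.02, 8.04 and 9.68 CPM at ZT 0 in sedentary muscle. Recovery minus sedentary change was -1.40 (SE 0.21, adjusted p = 0.00047). Per1 thus fell while the sedentary level was higher at ZT 4 than at ZT 0, and Dbp rose by less than between the sedentary groups. The +3h libraries, at ZT 3.5, precede the sedentary ZT 4 by 0.5 h, and the +0h libraries, at ZT 0.5, follow the sedentary ZT 0 by 0.5 h. Recovery thus spanned 3 h and the sedentary change 4 h, and the part of these offsets in the differences was not tested. Arntl, the activator BMAL1, read 38.0, 38.5 and 50.1 CPM at +3h and 49.1, 49.8 and 49.8 CPM at +0h and did not pass (-0.23, adjusted p = 0.38). Per2 read 20.03, 8.98 and 4.50 CPM at +3h and 12.7, 12.2 and 6.23 CPM at +0h (0.08, adjusted p = 0.93).

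**Figure D4:**
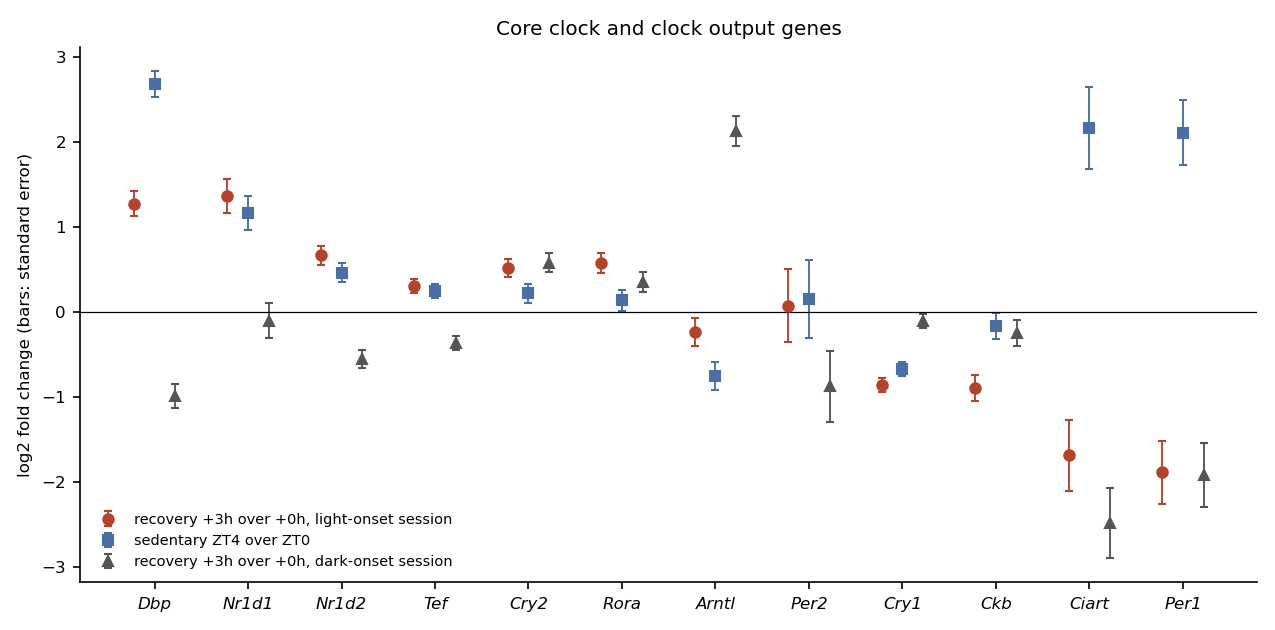
Log2 fold changes of 12 clock and clock output genes with their standard errors: recovery of the light-onset session (red circles), sedentary ZT4 over ZT0 (blue squares) and recovery of the dark-onset session (grey triangles). Nr1d1, Nr1d2, Tef and Cry1 of the light-onset session lie near the sedentary change, Dbp lies between 0 and it, and Per1 and Ciart lie on the other side of 0.

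The recovery was also tested against the sedentary change, which covers nearly the same hours of the day but spans 4 h. Between ZT 4 and ZT 0, 29 genes (0.192%) differed in sedentary muscle. The recovery differed from that change for 860 genes (5.70%), 379 in the positive direction (2.51%) and 481 in the negative (3.19%). Of these 860, 749 were among the 2133 of the recovery itself and 111 were not. The count was 553 without sedentary ZT4 replicate 3 and 557 without sedentary ZT0 replicate 1. Ppargc1a had the smallest p, with a difference of 3.54 (SE 0.16, adjusted p = 2.5e-11). Rbm20, which governs the splicing of titin, read 183, 205 and 168 CPM at +3h and 69.4, 73.5 and 62.3 CPM at +0h. In sedentary muscle it read 70.3, 66.5 and 74.4 CPM at ZT 4 and 68.4, 70.98 and 81.5 CPM at ZT 0 (difference 1.501, SE 0.14). The other 6 with the smallest p values were lowered.

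Among the lowered, Akap12, a scaffold of protein kinase A, read 16.9, 12.4 and 13.1 CPM at +3h and 84.7, 115 and 68.9 CPM at +0h, with 19.3, 24.05 and 23.6 CPM at ZT 4 and 18.2, 18.6 and 18.2 CPM at ZT 0 (difference -2.95, SE 0.28). Every +3h library was below every sedentary library. Dach1, a transcription factor, read 0.424, 0.341 and 0.49 CPM at +3h and 2.40, 2.52 and 2.33 CPM at +0h. In sedentary muscle it read 2.86, 2.56 and 2.70 CPM at ZT 4 and 2.87, 2.42 and 3.17 CPM at ZT 0 (difference -2.49, SE 0.25). At +0h Dach1 stood within or just under the sedentary range, and at +3h every library was far below it. Prkab1, the beta-1 subunit of AMP-activated kinase, read 7.38, 7.62 and 7.10 CPM at +3h and 10.9, 10.8 and 13.6 CPM at +0h. Its recovery change was -0.67, and its difference from the sedentary change was -1.10 (SE 0.11). Cd83, Mob3a and Bcar1 completed this set.

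The immediate early genes fell against the sedentary change in 17 of 30 members and rose in none, with a median difference of -2.27 beside a sedentary median of 1.00. Of the 13 mitochondrially encoded genes 11 were higher against the sedentary change, in which their median was -0.49. Sedentary muscle had 5965, 5609.5 and 5666 CPM of mt-Nd5 at ZT 4 and 7970.2, 5648 and 6734 CPM at ZT 0, levels that overlapped its +3h values. Of 28 mechanical stress genes 7 differed upward and 2 downward, of 25 lipogenesis and sterol genes 7 downward, and of 30 ubiquitin ligase and autophagy genes 5 upward. Of 30 fatty acid genes none differed in edgeR, and 4 had an unadjusted p under 0.05. The DESeq2 count for the fatty acid list is not reported here. The difference was 1.30 for Pdk4 (adjusted p = 0.065), with 734, 728 and 698 CPM at ZT 4 and 435, 188 and 504 CPM at ZT 0 in sedentary muscle, and 0.24 for Cpt1a (adjusted p = 0.42). In sedentary muscle Cpt1a read 14.7, 15.1 and 14.9 CPM at ZT 4 and 8.11, 6.35 and 9.33 CPM at ZT 0, so that in both genes the sedentary libraries were higher at ZT 4 as well.

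The +3h libraries were also placed against the range of the 6 sedentary libraries at ZT 4 and ZT 0. Of the 955 raised genes, 496 (51.9%) lay above all 6 in every +3h library, 457 (47.9%) overlapped them and 2 lay below. Of the 1178 lowered genes, 541 (45.9%) lay below all 6, 622 (52.8%) overlapped them and 15 lay above. Over all genes tested 9.29% lay above and 9.38% below. Of the 17 lowered immediate early genes, 14 overlapped the sedentary range, 2 (Fosl2 and Klf2) lay below it and 1 (Maff) above. Of the 15 largest falls 8 lay below it, among them Apold1, Slc25a25, Ppp1r3b and Cd83. Slc25a25 read 30.9, 33.2 and 28.3 CPM at +3h, against 35.5, 118 and 167 CPM at ZT 4 and 42.9, 67.9 and 112 CPM at ZT 0. Of the 12 lowered lipogenesis and sterol genes 7 lay below the sedentary range, of the 13 raised ubiquitin ligase and autophagy genes 11 lay above it, and all 6 raised antioxidant genes did.

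Recovery after the run at the onset of darkness changed 2378 genes (15.8%), 1099 raised (7.28%) and 1279 lowered (8.47%). The levels compared came from other libraries than in the light-onset session, but both tests took the spread from the same joint fit. The overlap of their calls is therefore not one between independent analyses. Of the genes raised in the light-onset session, 536 also rose there, which was 56.1% of the light-onset list and 48.8% of the dark-onset list. Of the lowered, 576 also fell there, 48.9% of the light-onset list and 45.0% of the dark-onset list. In opposite directions, 5 rose at light onset and fell at dark onset, and 4 the reverse. Ppargc1a read 258, 358 and 341 CPM at +3h and 27.4, 27.8 and 27.0 CPM at +0h of the dark-onset session (3.54 on the log2 scale), close to its light-onset change of 3.20; the difference was -0.34 (SE 0.16, adjusted p = 0.4). Junb changed by -3.59 and -4.39 in the light-onset and dark-onset sessions.

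**Figure D5:**
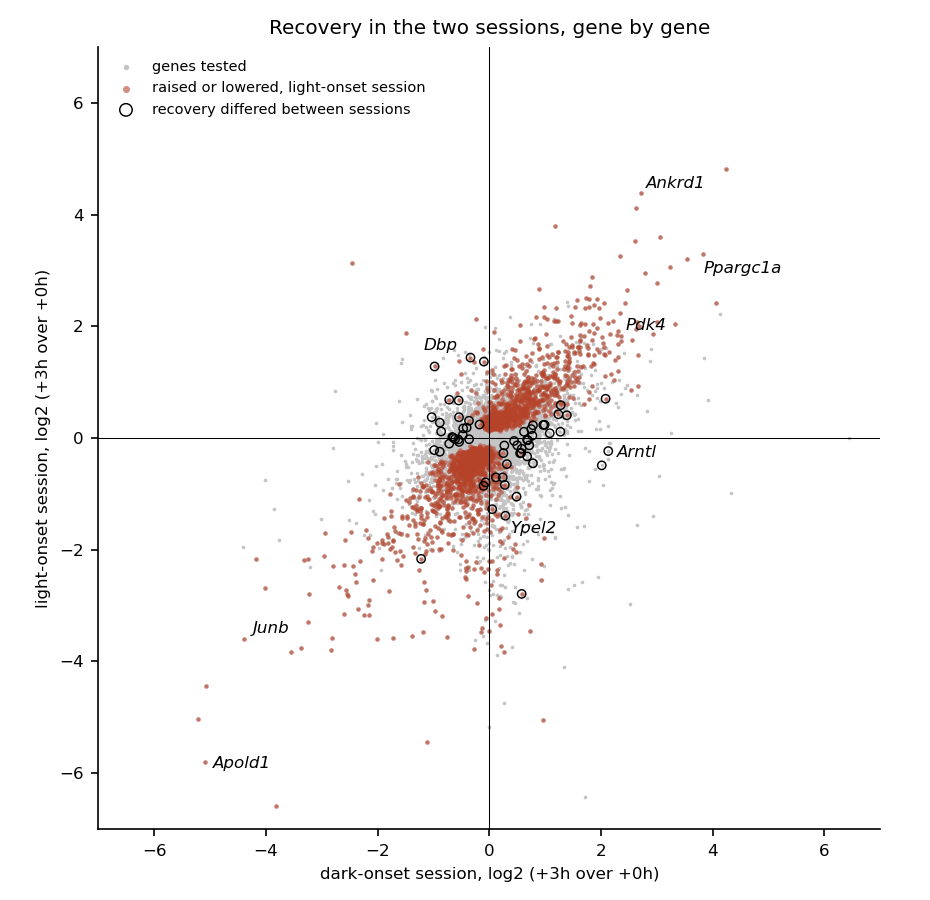
Log2 fold change from +0h to +3h of each gene tested, in the light-onset session (vertical) and the dark-onset session (horizontal); red points passed in the light-onset session, and black rings mark the 60 genes whose recovery differed between sessions. Of the 955 raised genes 536 and of the 1178 lowered 576 passed in the same direction in both sessions, while Dbp and Arntl are ringed away from the diagonal; 5 genes lie outside the axes.

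The recovery differed between the sessions for 60 genes (0.397%), 23 upward (0.152%) and 37 downward (0.245%) in the light-onset session relative to the dark-onset session, and 1841 had an unadjusted p under 0.05. DESeq2 called 198, the fit of the 12 libraries alone 16, and the fit without +0h replicate 2 of the light-onset session 153. It was 37 without +0h replicate 1 and 39 without +3h replicate 2 of the light-onset session, and 27 without +0h replicate 2 and 36 without +3h replicate 2 of the dark-onset session. Clock genes made up 9 of the 60, 6 upward and 3 downward of 22 tested. Dbp rose in the light-onset session and read 47.7, 43.9 and 42.8 CPM at +3h and 71.6, 93.1 and 100.1 CPM at +0h of the dark-onset session (difference 2.26, SE 0.21, adjusted p = 1.9e-05). Arntl, which did not pass in the light-onset session, read 22.4, 24.7 and 19.4 CPM at +3h and 4.87, 5.91 and 4.40 CPM at +0h of the dark-onset session (difference -2.36, SE 0.24, adjusted p = 5.4e-05). Nr1d2 differed by 1.22 (SE 0.15), Cry1 by -0.75 and Nr1d1 by 1.46.

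Outside the clock list, Ypel2 fell in the light-onset session, with 8.88, 8.90 and 10.1 CPM at +3h and 25.1, 25.5 and 22.2 CPM at +0h. In the dark-onset session it read 10.6, 8.03 and 9.02 CPM at +3h and 5.67, 8.30 and 8.69 CPM at +0h (difference -1.68, SE 0.19). Its sedentary level was 14.4, 15.95 and 13.1 CPM at ZT 4 and 22.6, 26.2 and 25.9 CPM at ZT 0. Slc16a9, of the monocarboxylate transporter family, read 7.16, 8.41 and 8.95 CPM at +3h and 18.2, 16.02 and 16.6 CPM at +0h of the light-onset session. In the dark-onset session it read 11.96, 14.7 and 10.4 CPM at +3h and 7.83, 10.3 and 8.27 CPM at +0h (difference -1.54, SE 0.22). The others with the smallest p values were Zhx2 (difference -0.996), the ceramide kinase gene Cerk (difference -0.84) and Rhbdf2 (difference -0.82). The last 2 lost the call in the fit of 12 libraries. In the lists of 28 mechanical stress, 31 heat shock, 30 immediate early and 30 ubiquitin ligase and autophagy genes none passed this test in edgeR, and 1, 3, 3 and 6 had an unadjusted p under 0.05. Of 25 lipogenesis and sterol genes 1 differed downward (median -0.89), and 14 had an unadjusted p under 0.05. In the dark-onset session 2 of the 25 fell (median -0.05). Of 30 fatty acid genes 1 differed downward (median -0.43), with 11 at an unadjusted p under 0.05. Of 13 mitochondrially encoded genes none passed this test, and 12 rose at dark onset beside 3 at light onset. Time of day and mice differ together between the sessions and cannot be told apart.

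Of the 109 genes named by rule that passed in the recovery comparison, 60 kept their side of the threshold and direction under all 16 alternatives run, and 45 did not pass in the fit of these 6 libraries. Among the leading genes, Ankrd1, Rrad, Xirp1, Csrp3, Chac1, Srxn1, Hmox1, Tnfrsf12a, Hspb7, Hspb8, Ucp3, Thbs1, Irs2, Cyp51, Hmgcs1, Egr2, Fosb, Pnpla3 and Ppp1r3b were in that second count. Ppargc1a, Pdk4, Hk2, Cpt1a, Trim63, Gabarapl1, Junb, Fosl2, Apold1, Nr4a2, Ddit4, Errfi1, Srebf2, Cry1 and Dbp were among the 60.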

How the data were processed

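Quadriceps samples were snap frozen, and polyadenylated RNA was sequenced from stranded libraries, per the labels' protocols. The authors deposited estimated counts per gene for 2 lanes of each library, made with kallisto 0.46.2 on GRCm38.p6 per the submitters' processing notes; how transcripts were summed to genes is not stated by those notes. Kallisto splits reads of near-identical genes by likelihood, so such copies are uncertain. Lanes were summed and rounded. Gene names and coordinates came from RefSeq (GRCm38.p6), which matched 23614 of 23621 identifiers; the 7 others held 0.00139% of counts and stayed in the fit under their identifiers.

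The 24 quadriceps libraries were fitted together with edgeR 4.0.16 in R 4.3.3 (TMM, filterByExpr at a minimum count of 10, robust quasi-likelihood test), so all groups share 1 estimate of the spread; p-values were adjusted by Benjamini-Hochberg over 15097 genes, with a threshold of 0.05. Recovery, its difference from the sedentary change and its difference between sessions were contrasts of that fit. If libraries do not come from separate mice, p-values measure only the spread between samples. DESeq2 1.42.0, another scaling, other filters, single lanes, covariates, a replicate block and fits without 1 library were the alternatives. The fit was also run on counts simulated from its own estimate of the spread. Of 100 genes given a log2 fold change of 1 up or down, 91% were recovered in the recovery comparison. These were drawn from genes with a mean log2 CPM above 1, so the share does not cover lower genes. The simulated counts held no outlying library, so they cannot show how the calls behave with one.

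Genes named were the 15 largest rises and falls by log2 fold change among those that passed, had non-overlapping groups and reached a mean log2 CPM of 1, up to 4 genes of smallest p per list, 25 genes of general interest, and the 8 of smallest p for each difference. Sgk1, Rcan1, Dusp6, Spry1, Ccn2, Mlycd and Pfkfb1 were named after their values were seen, as were members listed only to complete a count. The groups, gene lists and named genes were chosen with earlier results of these data known. Gastrocnemius and wheel-running libraries are not analysed here. A few list members are counted but not reported by name here, and the plot of single libraries leaves out some of them.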

Additional observations from a re-analysis of the deposited data

Results flagged for a closer look

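Tests of a difference between changes picked out these results; groups of 3 libraries were not tested for outlying samples. Recovery of the light-onset session differed from the sedentary change for 860 genes and from recovery of the dark-onset session for 60.

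Against the sedentary change, the difference on the log2 scale was 3.54 for Ppargc1a and 1.501 for Rbm20. It was -3.57 for Cd83, -2.95 for Akap12, -2.49 for Dach1, -1.87 for Mob3a, -1.31 for Bcar1 and -1.10 for Prkab1. Cd83 read 1.06, 0.812 and 0.682 CPM at +3h and 6.64, 5.78 and 5.64 CPM at +0h, with 1.93, 2.34 and 2.53 CPM at ZT 4 and 1.28, 1.16 and 1.64 CPM at ZT 0 in sedentary muscle. Mob3a, of the MOB family of kinase activators, read 3.65, 3.38 and 3.73 CPM at +3h and 11.4, 9.99 and 10.5 CPM at +0h, with 5.84, 6.68 and 7.44 CPM at ZT 4 and 4.84, 5.84 and 5.47 CPM at ZT 0. Bcar1, an adaptor of integrin signalling, read 11.2, 10.6 and 12.4 CPM at +3h and 23.6, 23.6 and 25.8 CPM at +0h, with 15.9, 19.2 and 18.4 CPM at ZT 4 and 14.3, 15.7 and 15.98 CPM at ZT 0. All 8 had the same direction and passed under every alternative run for this difference.

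Between the sessions, the recovery of the light-onset session minus that of the dark-onset session was 2.26 for Dbp and 1.22 for Nr1d2. It was -2.36 for Arntl, -1.68 for Ypel2, -1.54 for Slc16a9, -0.996 for Zhx2, -0.84 for Cerk and -0.82 for Rhbdf2. Zhx2, a transcriptional repressor, read 45.3, 50.8 and 54.6 CPM at +3h and 42.2, 49.9 and 49.95 CPM at +0h of the light-onset session, and 46.0, 46.7 and 41.7 CPM at +3h and 19.5, 23.1 and 20.8 CPM at +0h of the dark-onset session. Cerk read 10.96, 10.9 and 11.7 CPM at +3h and 14.1, 13.0 and 13.2 CPM at +0h of the light-onset session, and 15.6, 15.2 and 13.6 CPM at +3h and 11.2, 10.1 and 8.53 CPM at +0h of the dark-onset session.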

How the results depend on the processing

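With 3 libraries a group, each count depends on how the spread is estimated. The count of recovery genes (2133) was 654 in the fit of its 6 libraries and 1390 to 2118 when 1 library was left out; other alternatives gave 1627 to 2434. The difference from the sedentary change (860) gave 553 to 1030 with 1 library left out and 683 in the fit of its 12 libraries. The difference between sessions (60) gave 16 in the fit of its 12 libraries, 198 in DESeq2 and 27 to 153 with 1 library left out. Of the values of named genes for recovery, 1971 under an alternative kept their direction and side of the threshold, 177 lost the call, 25 gained one and 15 changed sign. The sign changed without +3h replicate 1 for Atf3 (-0.26 to 1.64 over the fits that left out 1 library), Hspa1a (-0.21 to 1.41), Hspa1b (-0.48 to 1.19), Myl2 (-0.43 to 2.28), Myl3 (-0.12 to 2.16) and Myoz2 (-0.17 to 1.34), and without +3h replicate 1 or +0h replicate 3 (-0.16) for Per2 (-0.63 to 0.46). It changed with the adipocyte score as a covariate for Cidea (0.32), Plin1 (0.16), Ucp1 (1.19) and Per2 (-0.12), with the slow fibre score for Myl2 (-0.025) and Per2 (-0.014), and with lane 1 alone for Per2 (-0.038). None of these genes passed in recovery; the cause was not tested.

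Same-numbered +3h and +0h replicates had correlations of deviations of -0.035, -0.008 and 0.023, and none matched its own number best, so the numbers were not read as pairs. With the replicate number as a block the counts were 1991, 799 and 59 for recovery, its difference from the sedentary change and its difference between sessions. At these depths levels well below 1 CPM, such as those of Cxcl10 at +0h and Egr3 at +3h, rest on few counts.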
